A study of Mus musculus with 31 samples.

Results

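*Lipc* encodes hepatic lipase, and it is described here as 1 gene of the 31172 gene symbols read from the liver libraries of 31 mice. It was taken up because its level in these same libraries was far lower in mice given an antisense oligonucleotide against *Upf3b* than in all other mice, so its levels across treatment groups are given as a description, with no test. All mice were *hFIX-R29X* animals, which lack the mouse factor IX gene and carry a human factor IX minigene with the R29X nonsense mutation, driven by the human transthyretin promoter and so expressed mainly in hepatocytes. By the study's account they were aged 8 to 14 weeks, received 6 subcutaneous doses, 1 every 5 days, and gave their livers 48 h after the sixth of these. The labels give weekly dosing instead. The study's text does not describe the 20 mg/kg groups named next in these mice, and for them its account is assumed. The groups were DPBS, the injection vehicle (11 mice, 6 female and 5 male), Control-GalNAc-ASO at 15 mg/kg (4 mice, 2 female and 2 male), Control-GalNAc-ASO at 20 mg/kg (6 mice, 3 female and 3 male), *Upf3b*-GalNAc-ASO at 10 mg/kg (5 mice, 2 female and 3 male) and *Upf3b*-GalNAc-ASO at 20 mg/kg (5 mice, 2 female and 3 male). The GalNAc group directs an oligonucleotide to the asialoglycoprotein receptor of hepatocytes, and the oligonucleotides used are gapmers, whose central DNA stretch lets RNase H1 cut the bound RNA. The comparison asks which liver mRNAs change when *Upf3b*, a factor of nonsense-mediated mRNA decay (NMD), is depleted.

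Hepatic lipase is made and secreted by hepatocytes, and it hydrolyses the triglycerides and phospholipids of remnant particles and of high-density lipoprotein (HDL). It belongs to the same family as lipoprotein lipase (*Lpl*) and endothelial lipase (*Lipg*). NMD removes mRNAs whose translation ends too early and also tunes a set of normal transcripts, and UPF3B is a factor that links the exon junction complex to UPF1.

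In the GENCODE M21 annotation of GRCm38, *Lipc* (ENSMUSG00000032207.10) occupies chr9:70798128-70952226 on the minus strand, a span of 154099 bases. Its longest spliced transcript, Lipc-201, has 9 exons and 1920 bases and starts at position 70934808. A second coding transcript, Lipc-204, starts at the far end of the gene, at 70952226, and joins the same second exon. The nearest protein-coding neighbours are *Adam10*, which ends 17899 bases beyond the 3′ end of *Lipc*, and *Aqp9*, 158433 bases beyond its 5′ end. A miRNA gene (*Gm25149*), a processed pseudogene (*Gm3436*) and a processed transcript on the opposite strand (*Gm32017*) lie inside *Lipc*, and none of them overlaps an exon of Lipc-201.

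The oligonucleotides are shown because the *Lipc* fall was seen only with one of them, so that a reader can compare its target site with the *Lipc* mRNA. In the first pair of lines the DNA gap of 10 bases is in capitals and the modified wings of 3 bases are in lower case. The next line is the stretch of the *Upf3b* mRNA complementary to its oligonucleotide, and the last is the stretch of Lipc-201 closest to that site, with the bases shared with the *Upf3b* site in capitals and the others in lower case.
Upf3b ASO: ggaTATAGATGTAacg
Control ASO: ggcCAATACGCCGtca
Upf3b site: CGTTACATCTATATCC
Lipc-201, closest stretch: ttcTgCATCTtTATCC

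The *Upf3b* site lies at chrX:37091973-37091988, in exon 10 of 10 of Upf3b-201, and *Upf3b* was the only gene of 55341 with annotated transcripts that held it with 0 mismatches or with 1. With at most 2 mismatches 13 genes held it, and with at most 3 mismatches 221 genes (0.399%). *Lipc* was in neither set. Its closest stretch, at chr9:70934509-70934524 in the coding part of exon 1, had 5 mismatches, written as the base of the *Upf3b* site, its position from the 5′ end and the base of *Lipc*: C1T, G2T, T3C, A5G and A11T. A match as close as this or closer was present in 16904 genes, or 30.5% of those searched, and the longest unbroken run in the *Lipc* stretch was 5 bases. The control oligonucleotide matched no *Lipc* transcript with fewer than 6 mismatches. Only spliced transcripts were searched, and the introns of *Lipc* were not analysed here.

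The target was low in the treated livers, though unevenly. The study's qPCR of livers at 10 mg/kg gave a deeper mean fall than the values below. Values are in TPM as deposited, a share of each library scaled to a fixed total, and the smallest steps between them gave the number of reads behind each value, from 1020676 to 7391639 reads per mouse. *Upf3b* was at 5.97, 20.7, 53.7, 3.95 and 23.3 TPM in mice 1 to 5 given 10 mg/kg, and at 9.37, 2.68, 2.57, 16.7 and 7.68 TPM in mice 1, 2, 4, 5 and 6 given 20 mg/kg. In the mice given DPBS the lowest, median and highest values were 33.8, 104 and 136 TPM. Control-GalNAc-ASO mice had 66.9, 27.1, 58.5 and 78.7 TPM at 15 mg/kg, and from 85.3 through a median of 113 to 135 TPM at 20 mg/kg. The treated mice therefore lay below all others except for mouse 3 at 10 mg/kg, whose 53.7 TPM was above the values of 3 mice that had not received the *Upf3b* oligonucleotide. That mouse had the fewest reads of the series and the lowest median correlation with its group (0.693). The pooled *Lipc* fold, the count of genes called at 10 mg/kg, *Apoa5* and *Onecut1* are given with and without it. Most other results at 10 mg/kg are given only with it.

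*Lipc* was nearly absent from the livers of all 10 mice given *Upf3b*-GalNAc-ASO. At 10 mg/kg it was listed at 0, 0.746, 0.980, 0 and 0.258 TPM in mice 1 to 5, which correspond to 0, 3, 1, 0 and 1 reads. At 20 mg/kg it was at 0, 0.960, 0, 2.44 and 0 TPM in mice 1, 2, 4, 5 and 6, or 0, 5, 0, 5 and 0 reads. The highest of these 10 values was 2.44 TPM, and the lowest value of any other mouse was 25.9 TPM, so the treated and other mice did not overlap.

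The other livers all held *Lipc* mRNA at moderate levels. In DPBS-treated mice the lowest, median and highest values were 27.0, 63.5 and 114 TPM, with a mean of 65.0 ± 25.8 TPM (SD, n = 11). In mice given Control-GalNAc-ASO at 15 mg/kg *Lipc* was at 107, 60.8, 65.1 and 91.0 TPM, a mean of 80.9 ± 21.9 TPM (SD, n = 4). At 20 mg/kg of the same control the values ran from 25.9 through a median of 68.9 to 138 TPM, a mean of 72.1 ± 37.2 TPM (SD, n = 6). The order of the means was Control-GalNAc-ASO 15 mg/kg, Control-GalNAc-ASO 20 mg/kg and DPBS, and these neighbours overlapped and differed by less than 1 SD. Each of these 21 values rested on 32 to 627 reads.

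**Figure D1:**
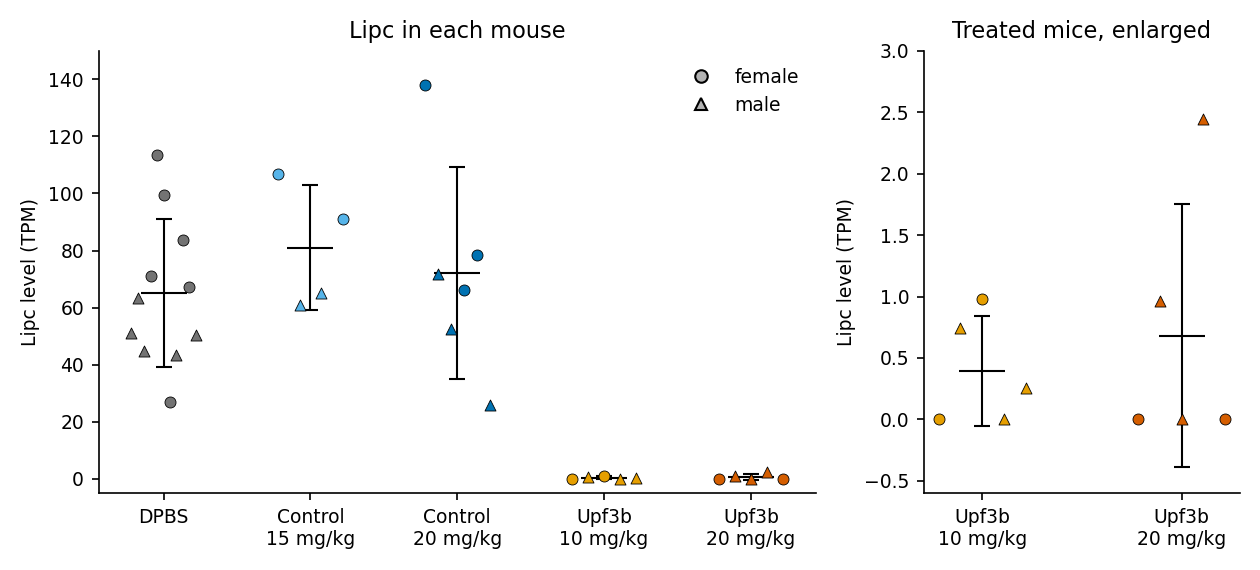
*Lipc* level in TPM in each of 31 mice by group, with circles for females, triangles for males, horizontal bars for means and error bars for SD; the right panel enlarges the groups given *Upf3b*-GalNAc-ASO. No treated mouse rises above 2.44 TPM and no other mouse falls below 25.9 TPM.

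Summed over mice, *Lipc* had 5 reads in the 10 mg/kg group and 1397 reads in the group given the control at 15 mg/kg. Relative to all reads this was 0.361% of the control level, or 277-fold lower (95% exact interval of the counts 118 to 854-fold). At 20 mg/kg there were 10 reads against 1491 reads in the control group at the same dose, which was 0.803% of the control level or 125-fold lower (67.6 to 260-fold). These intervals cover counting error only, and those of the 2 doses overlap. The depth was enough to see *Lipc* at the levels of other mice. At the lowest level seen in any other mouse, the treated libraries would have held between 26.5 reads (10 mg/kg mouse 3) and 135 reads (20 mg/kg mouse 2) of *Lipc*. Single mice moved these folds. The ratio at 10 mg/kg was 525-fold without mouse 2 (2 reads left, 95% exact interval 145 to 4337-fold) and 325-fold without the shallow mouse 3 (4 reads left). That at 20 mg/kg was 222-fold without mouse 5 and 181-fold without mouse 2 (5 reads left in each case).

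On the log2(TPM + 1) scale, which understates the change of a gene close to 0, *Lipc* fell by 5.86 at 10 mg/kg and by 5.47 at 20 mg/kg against the matching controls. It was the third largest fall of 9166 genes at 10 mg/kg, after *Gm8430* and *Ugt1a9* and before *Rpl23a-ps3* and *Gm12411*. It was also the third of 9376 genes at 20 mg/kg, after *Mup19* and *Ugt1a9* and before *Gm8430* and *Gm5963*. Several of these belong to near-identical gene families or are pseudogenes, whose reads can be split between copies. The treated mean of *Ugt1a9* was 814 TPM at 10 mg/kg and 269 TPM at 20 mg/kg, against 3243 and 2729 TPM in the controls.

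*Lipc* stood at the end of the range of genes expressed at the same level. Among the 1392 genes whose mean over the 21 other mice was within 1.5-fold of that of *Lipc* (70.1 TPM), *Lipc* had the lowest remaining share, with a treated mean of 0.768% of the other mean. The next lowest was 12.3% (*Maob*, monoamine oxidase B). Over all 9840 genes whose median reached 5 TPM in some group, every treated mouse lay below every other mouse for 8 genes (0.0813%) and above for 2 genes (0.0203%), *Cblc* and *Zfas1*. The genes below included *Lipc*, *Immp2l*, *Rdh16*, *Maob*, *Dpyd*, *Slc47a1* and *Ptprk*, which kept from 4.02% (*Immp2l*) to 50.1% (*Ptprk*) of the other mean apart from *Lipc*. These genes were picked by the values shown and are not tested.

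Mouse by mouse, low *Lipc* was seen over the whole range of remaining *Upf3b* mRNA. The 5 treated mice with no *Lipc* read had between 2.57 and 9.37 TPM of *Upf3b*. The 5 with reads had 2.68, 16.7, 20.7, 23.3 and 53.7 TPM, with 5, 5, 3, 1 and 1 reads of *Lipc*. All treated mice above 9.37 TPM of *Upf3b* thus had *Lipc* reads, though few, and this relation was not tested. In 10 mg/kg mouse 3, *Upf3b* stood at 55.3% of the DPBS mean while *Lipc* stood at 1.51%. Against the mean of the 15 mg/kg controls, *Upf3b* stood at 93.0% and *Lipc* at 1.21% in this mouse. Untreated or control mice with a similar *Upf3b* level kept their *Lipc*. DPBS mouse 5 had 33.8 TPM of *Upf3b* and 114 TPM of *Lipc*, DPBS mouse 6 had 43.6 and 99.5 TPM, and Control-GalNAc-ASO 15 mg/kg mouse 2, with the lowest *Upf3b* of all mice not given the *Upf3b* oligonucleotide, had 27.1 and 60.8 TPM. The single *Lipc* read of 10 mg/kg mouse 3 sets its level only loosely, and its library was the shallowest. DPBS mouse 6 was also shallow, at 1195890 reads. DPBS mice 5 and 6 had median correlations with their group of 0.801 and 0.743, where the median DPBS mouse had 0.865.

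**Figure D2:**
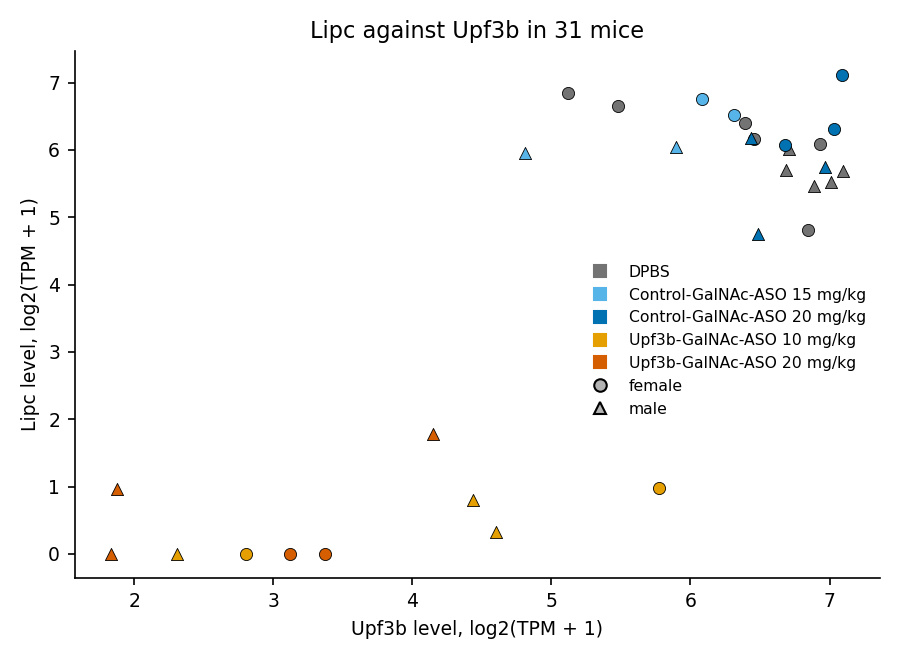
*Lipc* against *Upf3b*, both as log2(TPM + 1), with 1 point per mouse, colour for group and shape for sex. The treated mice lie along the bottom at any *Upf3b* level, including the mouse at 53.7 TPM of *Upf3b*, and the other 21 mice lie above 4.7 on the *Lipc* axis.

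Within the groups in which neither gene was targeted, the relation between *Lipc* and *Upf3b* was negative in one and did not pass in the other. Across the 11 mice given DPBS, Pearson's r of log2(TPM + 1) was -0.78 (two-sided permutation test, p = 0.0020, adjusted p = 0.0040 over 2 relations) and Spearman's rho was -0.77 (permutation p = 0.0070, adjusted p = 0.014). Without the mice farthest from the median *Upf3b* level (DPBS mice 5 and 6, both female), r was -0.57 (exact permutation p = 0.11) and rho was -0.58 (exact permutation p = 0.11), so with 9 mice the relation stayed negative and did not pass. Without the DPBS mice with the fewest reads (6 and 7), a choice made after seeing the data, r was -0.86 (exact permutation p = 0.0022). Over all 11 mice it was, with scaled values, -0.76 (permutation p = 0.0053) and, on TPM itself, -0.88 (permutation p = 0.00050). The means of both genes differed between the sexes in this group, and for *Upf3b* the difference was not tested. *Upf3b* averaged 80.4 ± 35.7 TPM in females (SD, n = 6) and 118 ± 14.8 TPM in males (SD, n = 5). Among the 6 females alone r was -0.74 (exact permutation p = 0.068) and rho was -0.94 (exact permutation p = 0.017), and the 5 males were too few for a correlation. Across the 10 Control-GalNAc-ASO mice of both doses r was 0.14 (permutation p = 0.67, adjusted p = 0.67) and rho was 0.21 (permutation p = 0.56, adjusted p = 0.56). Without the mice farthest from the median (15 mg/kg mouse 2 and 20 mg/kg mouse 1), r was -0.22 (exact permutation p = 0.63). In the 6 control mice at 20 mg/kg alone, r was 0.60 (exact permutation p = 0.21), and the 4 at 15 mg/kg were too few. No correlation is given over all 31 mice, because treated and other mice form separate clusters.

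Sex was not used to choose *Lipc* and could be tested. In the DPBS group females had a mean of 77.1 ± 30.1 TPM (SD, n = 6) and males 50.6 ± 7.92 TPM (SD, n = 5), a male minus female difference of -0.48 ± 0.33 (SE) on the log2 scale that did not pass (limma, adjusted p = 0.64, with 1.41% of 8998 genes passing). The sexes overlapped, because DPBS mouse 7, a female, had the lowest value of the group, 27.0 TPM from 32 reads. Females had the higher mean in the control groups too, 98.9 against 62.9 TPM at 15 mg/kg and 94.2 against 50.1 TPM at 20 mg/kg. With all 21 mice not given the *Upf3b* oligonucleotide and the group as a covariate, an analysis chosen after the values were seen, the difference was -0.64 ± 0.23 (limma, unadjusted p = 0.0082, adjusted p = 0.18). In the treated mice, 14 of the 15 *Lipc* reads came from the 6 males and 1 read from the 4 females, levels too low for a comparison.

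Hepatocyte markers were present at high levels in all groups, although several had lower means in the treated mice. The summed level of 8 hepatocyte markers (*Alb*, *Ttr*, *Cps1*, *Asgr1*, *Asgr2*, *Serpina1c*, *Apoh* and *Fgb*) ranged from 16462 to 28913 TPM at 10 mg/kg and from 17148 to 28390 TPM at 20 mg/kg. It ranged from 17971 to 38412 TPM in DPBS-treated mice and from 16307 to 31091 TPM in the control groups, which overlapped with the treated mice. Most of this sum was *Alb*, and the other 7 summed to 6113 to 9848 TPM at 10 mg/kg against 9516 to 13741 TPM, and to 5453 to 9643 TPM at 20 mg/kg against 7778 to 11998 TPM. In DPBS-treated mice these 7 summed to 6511 to 14112 TPM, which overlapped with both treated groups. All 8 had negative log2 differences at 10 mg/kg, with a median of -0.55 against -0.03 for all genes, and the median at 20 mg/kg was -0.14 against -0.12. *Serpina1c* had log2 differences of -1.31 and -1.08 (adjusted p = 0.091 and 0.061) and *Fgb* of -0.74 and -0.84 (adjusted p = 0.22 and 0.085) at 10 and 20 mg/kg. The part of these lower levels in the *Lipc* values was not tested. None of the 8 passed the test in either *Upf3b* comparison (limma; 2 at 10 mg/kg and 3 at 20 mg/kg had an unadjusted p under 0.05), and none was at 0 throughout a group. In bulk liver, fewer cells of a type and less RNA per cell cannot be told apart. Of the markers of other cell types, 1 passed, the endothelial marker *Pecam1*, at 1745 ± 208 TPM at 20 mg/kg against 810 ± 401 TPM (SD, n = 5 and 6; limma, adjusted p = 0.020). With it, the summed level of the 5 endothelial markers was 1535 to 2210 TPM at 20 mg/kg and 591 to 1643 TPM in the matching controls. In DPBS-treated mice the same sum was 583 to 2378 TPM, a range that covers that of the treated mice. The part of this sum in the results on liver mRNAs was not tested. Without *Pecam1* the other 4 summed to 49.7 to 188 TPM against 115 to 186 TPM, and their log2 differences at 20 mg/kg were -0.72 (*Kdr*), -0.56 (*Clec4g*), -0.08 (*Stab2*) and -0.06 (*Lyve1*), the last pair turning to 0.02 and 0.05 with scaling. The 4 lymphocyte markers summed to at most 27.4 TPM in any mouse.

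The start region of Lipc-201 is shown because the hepatocyte factor HNF4A, whose mRNA is among the regulators described next, is known to act on the *Lipc* promoter. The 250 bases before the start (RefSeq, GRCm38.p6, chr9:70934809-70935058, minus strand) hold 1 match to the HNF4-type motif CAAAGGTCA or its reverse complement TGACCTTTG, in capitals, which begins 76 bases before the start.
Lipc promoter: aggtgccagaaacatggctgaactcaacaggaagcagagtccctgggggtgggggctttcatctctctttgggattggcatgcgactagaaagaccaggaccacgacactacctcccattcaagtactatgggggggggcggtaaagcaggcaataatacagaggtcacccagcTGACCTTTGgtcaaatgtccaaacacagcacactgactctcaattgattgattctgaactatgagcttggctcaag

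Of 32851 such windows in the RefSeq set, 140 (0.426%) held this motif on either strand. The letters GTTAAT or ATTAAC, part of the HNF1 motif, were not in this window and were in 6.43% of all windows. The window before the start of Lipc-204 held neither. These matches are descriptions of the letters and not of binding.

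The genes around *Lipc* in lipid metabolism, in its regulation and on its chromosome passed at the adjusted p about as often as all genes did, with few calls. They reached the thresholds of the study's methods more often than all genes, and this difference was not tested. Of 84 gene symbols in 5 lists (lipases and their partners, HDL, assembly of very-low-density lipoprotein (VLDL) and remnant uptake, regulators and hepatocyte factors, and neighbours on chromosome 9), 83 were in the data, 72 were tested at 10 mg/kg and 71 at 20 mg/kg. At 10 mg/kg none passed (limma, Benjamini-Hochberg adjusted p under 0.05), where 0.295% of all genes did (0.12% higher and 0.175% lower), and 14 of the 72 had an unadjusted p under 0.05, as did 15.8% of all genes. At 20 mg/kg 1 rose and 1 fell, where 0.928% of all genes were called higher and 1.59% lower, 2.52% in all, and 14 of the 71 had an unadjusted p under 0.05, as did 18.7% of all genes. At the thresholds of the study's methods (an unadjusted p up to 0.01 with a 2-fold or larger change), 1 was higher and 4 were lower at 10 mg/kg (6.94% in all), where 2.56% and 2.25% of all genes (4.81% in all) were. By the same thresholds 2 were higher and 5 lower at 20 mg/kg (9.86% in all), where 2.36% and 3.87% (6.23% in all) were. The median of all genes was -0.03 at 10 mg/kg and -0.12 at 20 mg/kg on the log2 scale. With the mice scaled to each other by median-of-ratios factors it was -0.005 and -0.006, and the split at 20 mg/kg over all genes went from 87 higher and 149 lower to 155 higher and 127 lower.

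**Figure D3:**
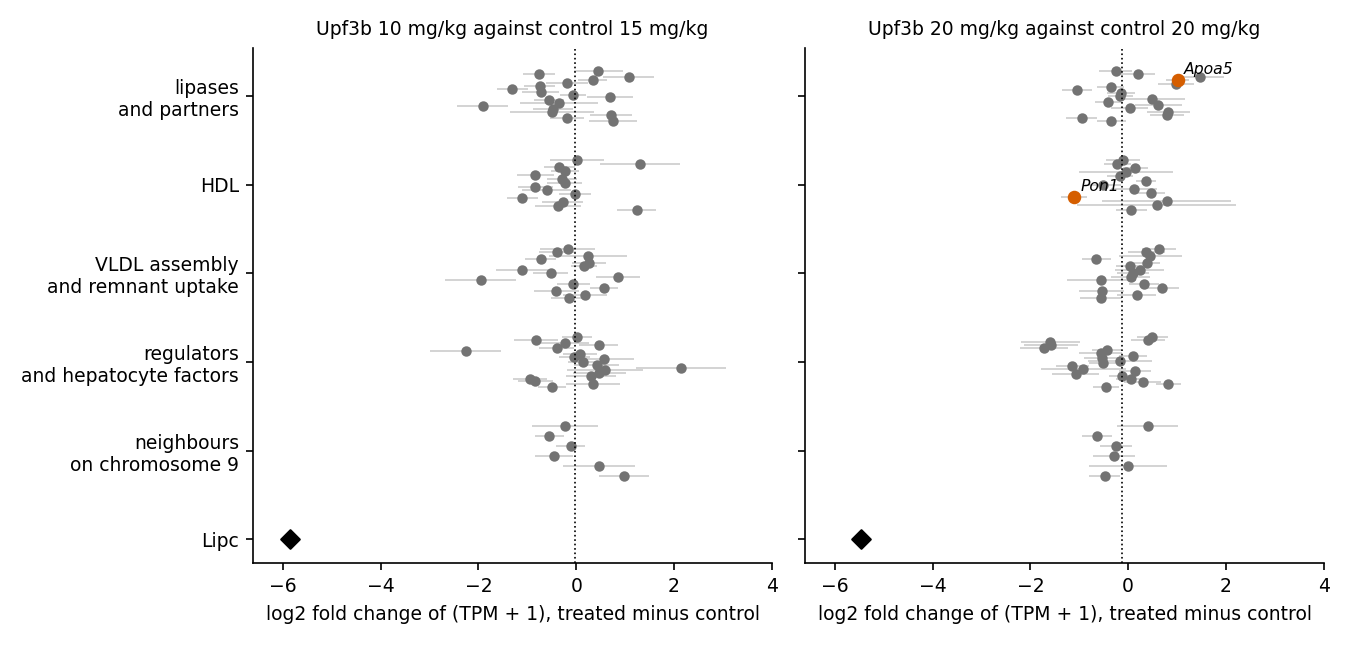
Log2 fold change of (TPM + 1), treated minus control, for the genes of 5 lists (points with SE bars; orange where the adjusted p was under 0.05) and for *Lipc* (diamond, no test), at 10 mg/kg (left) and 20 mg/kg (right). The dotted line is the median of all genes; the list genes lie between -2.26 and 2.14, and *Lipc* at -5.86 and -5.47.

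Among lipases and their partners, apolipoprotein A-V (*Apoa5*), an activator of triglyceride clearance, rose at 20 mg/kg. It was at 942, 822, 741, 931 and 868 TPM in the treated mice and between 289 and 663 TPM in the controls, with no overlap (1.65% of all genes lay wholly above their controls). The difference was 1.01 ± 0.23 (log2, SE; limma, adjusted p = 0.026). At 10 mg/kg it was at 632, 767, 345, 670 and 726 TPM against 397 to 525 TPM, overlapping the controls (2.08% of all genes lay wholly above them), a difference of 0.34 ± 0.30 (adjusted p = 0.59), and the lowest of these values was that of the shallow mouse 3. Without that mouse the difference at 10 mg/kg was 0.58 ± 0.22 (limma, adjusted p = 0.21). The call at 20 mg/kg was lost without control mouse 3 (adjusted p = 0.10), control mouse 5 (0.062), treated mouse 1 (0.058) or treated mouse 5 (0.055). The median of the list was 0.03 at 20 mg/kg and -0.27 at 10 mg/kg.

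The other lipases did not pass. Carboxylesterase 1D (*Ces1d*), a triglyceride hydrolase of hepatocytes, was at 114 ± 46.7 against 241 ± 78.4 TPM at 20 mg/kg (log2 difference -1.04, adjusted p = 0.074) and at 108 ± 31.5 against 260 ± 51.6 TPM at 10 mg/kg (-1.31, adjusted p = 0.085). Without control mouse 6 the former passed (adjusted p = 0.049), and without treated mouse 1 the latter (adjusted p = 0.029). Monoglyceride lipase (*Mgll*) was at 249 ± 110 against 457 ± 122 TPM at 20 mg/kg (adjusted p = 0.11). *Angptl8*, which takes part in the inhibition of lipoprotein lipase, was at 80.9 ± 52.3 against 29.4 ± 16.2 TPM (adjusted p = 0.11), and *Apoc2*, the cofactor of lipoprotein lipase, at 201.6 ± 90.1 against 108 ± 56.3 TPM (adjusted p = 0.15). Both relatives of *Lipc* were named after their values were seen. *Lpl* was at 184 ± 87.8 against 95.9 ± 24.4 TPM at 20 mg/kg (adjusted p = 0.22) and passed, higher, without treated mouse 2 (adjusted p = 0.022). *Lipg* was past the methods' thresholds at 10 mg/kg and too low to be tested at 20 mg/kg. It was at 4.08 ± 2.74 TPM against 18.1 ± 6.45 TPM there (adjusted p = 0.12), but the DPBS mean was 8.03 ± 8.12 TPM and that of the 20 mg/kg control 5.02 ± 3.76 TPM.

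In the HDL list paraoxonase 1 (*Pon1*), an HDL-bound esterase made by the liver, fell at 20 mg/kg. It was at 181, 52.4, 117, 117 and 187 TPM in the treated mice and between 173 and 361 TPM in the controls, so the groups overlapped by the lowest control (1.82% of all genes lay wholly below their controls). The difference was -1.11 ± 0.27 (log2, SE; limma, adjusted p = 0.032). At 10 mg/kg it was at 136, 152, 121, 151 and 99.7 TPM against 203 to 469 TPM, with no overlap (2.73% of all genes lay wholly below their controls), a difference of -1.10 ± 0.32 that did not pass (adjusted p = 0.15). The call was lost without control mouse 2 (adjusted p = 0.072), 3 (0.11), 4 (0.052) or 5 (0.057), or without treated mouse 1 (0.070) or 6 (0.054). The HDL proteins themselves did not pass. *Apoa1* was at 1120 ± 335 against 1328 ± 521 TPM at 20 mg/kg (adjusted p = 0.72), *Apoe* at 5628 ± 836 against 4371 ± 361 TPM (0.34), *Apom* at 87.2 ± 31.2 against 136 ± 56.2 TPM (0.49) and *Lcat*, the enzyme that esterifies HDL cholesterol, at 68.99 ± 16.9 against 53.2 ± 19.5 TPM (0.40). The HDL receptor *Scarb1*, named after its values were seen, was at 125 ± 93.5 against 55.5 ± 35.5 TPM at 10 mg/kg (adjusted p = 0.18) and 86.6 ± 18.4 against 89.0 ± 35.7 TPM at 20 mg/kg (0.93). The median of the list was -0.29 at 10 mg/kg and 0.07 at 20 mg/kg.

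For VLDL assembly and the uptake of remnants, none of 15 tested genes passed at either dose (limma) or reached the methods' thresholds, and 2 at 10 mg/kg and 1 at 20 mg/kg had an unadjusted p under 0.05. The heparan sulfate proteoglycan *Sdc4* was at 614 ± 500 against 330 ± 97.3 TPM at 20 mg/kg (adjusted p = 0.29) and *Apob*, the structural protein of VLDL, at 244 ± 45.4 against 196 ± 157 TPM (0.33). The median of the list was -0.14 at 10 mg/kg and 0.17 at 20 mg/kg.

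No regulator of the *Lipc* promoter or hepatocyte factor passed among 19 tested at 10 mg/kg and 20 tested at 20 mg/kg (limma), of which 4 and 6 had an unadjusted p under 0.05. *Hnf4a*, named for the motif above, was at 194 ± 62.4 against 245 ± 66.9 TPM at 10 mg/kg (log2 difference -0.40, adjusted p = 0.59) and 165 ± 61.2 against 221 ± 76.3 TPM at 20 mg/kg (-0.44, adjusted p = 0.47). The forkhead factors *Foxa1* and *Foxa2* had lower means at 20 mg/kg than in the matching controls, whose means were the highest of any group. *Foxa2* averaged 51.3 TPM in DPBS-treated mice and 32.7 TPM in the 15 mg/kg controls, and *Foxa1* 10.8 and 11.2 TPM. At 10 mg/kg the difference of *Foxa2* was 0.46 (adjusted p = 0.58). At 20 mg/kg *Foxa2* was at 27.8 ± 17.4 against 84.8 ± 42.8 TPM (log2 difference -1.72, adjusted p = 0.069). *Foxa1* was at 5.15 ± 2.86 against 18.5 ± 8.57 TPM (-1.58, adjusted p = 0.13). The nuclear receptor *Nr5a2* was at 33.3 ± 13.2 against 75.3 ± 25.7 TPM (-1.15, adjusted p = 0.075), and *Srebf2*, which drives sterol synthesis genes, at 236 ± 96.2 against 131 ± 20.9 TPM (0.82, adjusted p = 0.083). At 20 mg/kg *Srebf2* passed without treated mouse 2 (adjusted p = 0.040) or with scaling (0.035), *Foxa1* without control mouse 4 (0.039), *Foxa2* without treated mouse 5 (0.044) or with a pseudocount of 5 TPM (0.042), and *Nr5a2* without treated mouse 5 (0.039). At 10 mg/kg *Onecut1*, named after its values were seen, was at 221 ± 153 against 43.4 ± 36.1 TPM (adjusted p = 0.30). It passed without treated mouse 1 (adjusted p = 0.00067) and did not pass without the shallow treated mouse 3 (0.54). *Nr0b2*, named after its values were seen, was at 10.3 ± 12.5 against 47.7 ± 38.1 TPM at 10 mg/kg (adjusted p = 0.18). A test of whether the effects at the 2 doses differed called none of 9797 genes (limma, adjusted p under 0.05; 799 had an unadjusted p under 0.05), *Foxa2* included (adjusted p = 0.42). The median of the list was 0.09 at 10 mg/kg and -0.45 at 20 mg/kg.

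The loss of *Lipc* was not accompanied by a called change in the listed neighbours on chromosome 9. The protein-coding genes *Myo1e*, *Gm10642*, *Polr2m* and *Myzap* of the same region were not on the list. Of 9 symbols listed, 8 were in the data and 6 were tested, and none passed at either dose or had an unadjusted p under 0.05 (limma). *Aqp9*, which encodes a glycerol channel, was at 127 ± 22.5 against 186 ± 35.8 TPM at 10 mg/kg (log2 difference -0.55, adjusted p = 0.38) and 115 ± 47.5 against 166 ± 22.9 TPM at 20 mg/kg (-0.63, adjusted p = 0.27). *Adam10*, named as the neighbour nearest to *Lipc*, was at 6.22 ± 5.49 against 5.98 ± 2.82 TPM (-0.24, adjusted p = 0.89) and 7.004 ± 5.26 against 3.97 ± 1.136 TPM (0.40, adjusted p = 0.76). *Sltm*, *Cgnl1* and *Fam63b* had log2 differences of -0.48, -0.25 and -0.29 at 20 mg/kg (adjusted p = 0.44, 0.72 and 0.75).

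Against DPBS, no gene of the lists passed with the control oligonucleotide. None of 72 list genes passed at 15 mg/kg and none of 71 at 20 mg/kg, where 0% of 8971 and 0% of 9140 genes did (limma). An unadjusted p under 0.05 was reached by 9 and 7 list genes and by 644 (7.18%) and 905 (9.9%) of all genes. *Lipc* itself had log2 differences of 0.40 and 0.12. Between male and female DPBS mice 2 list genes passed (1.41% of all genes did), both higher in males. *Lpl* was at 172 ± 40.6 TPM in males and 76.0 ± 32.8 TPM in females (adjusted p = 0.043), and the carboxylesterase *Ces3a* at 277 ± 54.2 and 117 ± 41.8 TPM (adjusted p = 0.014). Both calls were lost without DPBS mouse 2 (adjusted p = 0.15 for *Lpl* and 0.055 for *Ces3a*), and that of *Lpl* also without mouse 1 (0.073), 3 (0.13), 4 (0.11), 6 (0.079), 7 (0.089), 8 (0.10), 9 (0.071) or 11 (0.052). Over the 21 mice not given the *Upf3b* oligonucleotide the male minus female difference of *Lpl* went from 1.24 to 0.53 (limma, adjusted p = 0.45), and that of *Ces3a* from 1.28 to 1.33 (adjusted p = 4.0e-06).

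The genes whose pattern over the 31 mice was most like that of *Lipc*, by Pearson's r of log2(TPM + 1) among 9840 genes, were *Rdh16* (r = 0.92), *Dpyd* (0.90), *Slc47a1* (0.86), *Agmo* (0.86), *Immp2l* (0.86) and *Adk* (0.86), and *Upf3b* was the tenth (0.84). The correlations describe mice that share their treatment group, and they carry no test. *Rdh16*, a retinol dehydrogenase, averaged 123 ± 60.4 TPM in DPBS-treated mice, 14.2 TPM at 10 mg/kg and 12.9 TPM at 20 mg/kg. *Dpyd*, the first enzyme of pyrimidine breakdown, averaged 86.4 ± 35.8, 11.3 and 8.88 TPM, and the cation exporter *Slc47a1* 78.4 ± 38.0, 11.02 and 12.2 TPM. *Immp2l*, a subunit of a mitochondrial membrane peptidase, came closest to *Lipc* in the depth of its fall, from 20.4 TPM to 0.605 and 0.642 TPM, although it also averaged only 9.57 and 10.48 TPM in the control groups.

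Among the 21 mice not given the *Upf3b* oligonucleotide these correlations were weaker. There r with *Lipc* was 0.03 for *Rdh16*, -0.35 for *Dpyd*, 0.42 for *Slc47a1*, 0.16 for *Agmo*, -0.30 for *Immp2l*, 0.26 for *Adk* and -0.32 for *Upf3b*. The genes most like *Lipc* in those mice were *Dnajb4* (0.81), *Nt5e* (0.80), *Serpina3m* (0.79), *Ahsg* (0.79) and *Med22* (0.79). The hepatocyte glycoprotein *Ahsg* averaged 3047 TPM in DPBS-treated mice and 2040 and 3462 TPM at the 2 doses, and *Lipc* fell from 65.0 to 0.397 and 0.680 TPM.

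The strongest reverse patterns over 31 mice were those of *Zfas1* (-0.86), a noncoding RNA that hosts small nucleolar RNAs, the glutathione transferase *Gsta1* (-0.83) and the adenosine receptor *Adora1* (-0.82). *Zfas1* averaged 49.9 TPM in DPBS-treated mice and 197 and 206 TPM in the treated groups, *Gsta1* 1.58, 49.4 and 60.1 TPM, and *Adora1* 105, 336 and 499 TPM.

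**Figure D4:**
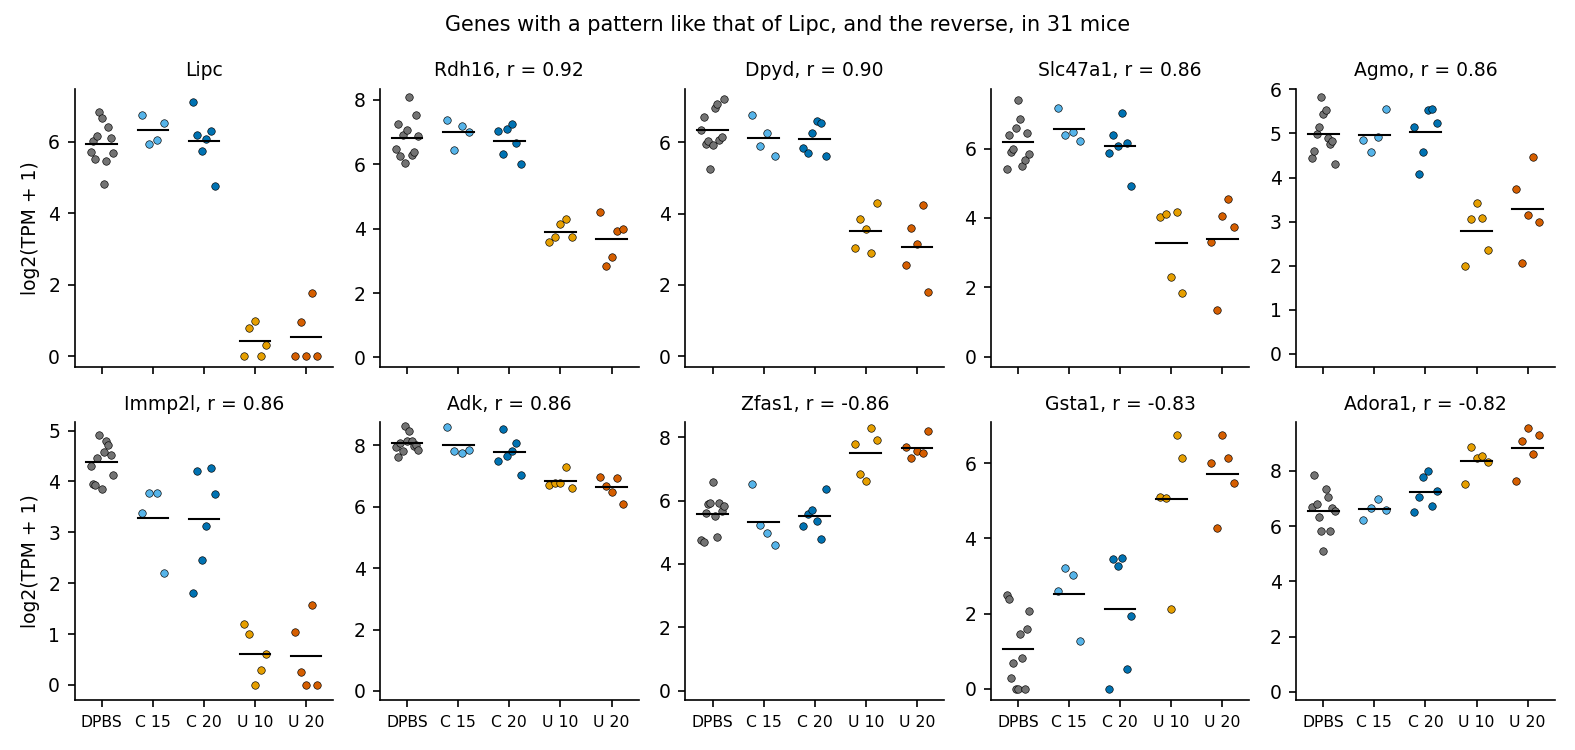
Levels as log2(TPM + 1) in each of 31 mice for *Lipc*, the 6 genes most like it and the 3 most opposed, with r over 31 mice in the titles and bars for group means (C, Control-GalNAc-ASO; U, *Upf3b*-GalNAc-ASO; dose in mg/kg). The treated groups of the 6 genes lie below their controls, and those of *Lipc* and *Immp2l* lie near 0.

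Some of the genes most like *Lipc* share its long genomic span. The annotated spans were 931499 bases for *Immp2l*, 870796 bases for *Dpyd*, 395996 bases for *Adk* and 340562 bases for *Agmo*, from the 98.4th percentile upwards of the 9658 genes with a span, whose median was 23869 bases. The span of *Lipc* was at the 93.9th percentile. *Rdh16* and *Slc47a1* were shorter, at 45414 and 34945 bases, and the 3 opposed genes spanned 2929 to 36209 bases. This is a description of few genes chosen by their values.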

How the data were processed

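Livers of 31 mice were profiled by mRNA sequencing. Per the labels, total RNA was made into libraries with a QuantSeq 3′ kit, whereas the study's methods name another kit. The authors quantified transcripts with Salmon 0.7.2 (bcl2fastq 2.17.1.14 before it) on GRCm38 and deposited TPM values for 31198 gene symbols per mouse; how transcripts were summed to symbols is not given in the sources used here. The labels give weekly dosing, and the methods an interval of 5 days. Symbols turned into calendar dates (26) were dropped. Most values (69.9% to 81.6% per mouse) were whole multiples, within 0.02 reads, of 1 smallest step, also for transcripts above 4000 bases, so the deposited TPM behave as shares of reads not divided by transcript length. The step gave 1020676 to 7391639 reads per mouse and a floor of 3 reads at 0.406 to 2.94 TPM. All *Lipc* values were whole reads, and those of *Upf3b* were not. Intervals and floors cover counting error only.

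Groups came from the labels, and each library was taken as 1 mouse. Where separate animals are not stated, p-values measure the spread between libraries. Genes whose median reached 5 TPM in a compared group were tested by limma 3.58.1 (R 4.3.3; trend and robust) on log2(TPM + 1), adding sex to the model, with Benjamini-Hochberg adjustment over all genes; the script was tested on simulated data. Fold changes are on the log2(TPM + 1) scale. Correlations used 100000 permutations, or all of them under 10 mice (numpy 2.4.6, scipy 1.17.1, Python 3.11.15). Pooled reads were compared by an exact binomial interval of 95%. Replicate numbers shared by treated and control groups were not taken as pairs, except in the block named below.

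The gene, its lists and the tests were chosen with earlier results of these data known. From each list the text names members past an adjusted p of 0.05 and up to 4 others with the smallest p at 20 mg/kg; likeness was ranked over genes whose median reached 5 TPM in some group, and others are named as chosen after their values were seen. Mice given the oligonucleotide against *Upf1* were not analysed here. Some genes that the naming rule selects are not reported here. Alternatives were another pseudocount (5 or 0.5), no filter or a filter of 1 TPM, median-of-ratios scaling, no sex term, no trend, a replicate block and leaving out each mouse.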

Additional observations from a re-analysis of the deposited data

Results flagged for a closer look

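In 96 combinations of a named gene and a group of 4 to 6 mice, 8 held a mouse far from the others by Dixon's criterion, which chance gives in about 1 of 20 (4.8 here). No *Lipc* or *Upf3b* value was among them. In *Upf3b*-GalNAc-ASO 10 mg/kg mouse 3, the library with the fewest reads, *Apoe* was low at 1609 TPM (next lowest 4982), and *Nr5a2* and *Sltm* were high at 298 and 813 TPM (next highest 62.1 and 186). In *Upf3b*-GalNAc-ASO 20 mg/kg mouse 2, *Sdc4* was at 1507 TPM (next 421). In Control-GalNAc-ASO 15 mg/kg mouse 4, *Mgll* was at 725 TPM (next 373) and *Apoe* at 5569 TPM (next 4741), and in mouse 2 of that group *Aqp9* was at 132 TPM (next lowest 198). In Control-GalNAc-ASO 20 mg/kg mouse 4, *Apob* was at 505 TPM (next 188). What set these values apart was not tested.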

How the results depend on the processing

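*Lipc* was chosen for its fall in these values, and every treated mouse lay below every other mouse. No setting could therefore turn the direction of *Lipc*, and the settings only show how the size of the fall moves. Its log2 fall was -3.93 with a pseudocount of 5 and -6.57 with 0.5 at 10 mg/kg, and -3.60 with 5 at 20 mg/kg, since the pseudocount sets the value of a gene near 0; leaving out each mouse gave -5.99 to -5.63 and -5.79 to -5.26. The sex difference of *Lipc* never passed. Within the DPBS group it ran from -0.75 without DPBS mouse 7 to -0.35 (limma, adjusted p from 0.27 to 0.81). Over the 21 mice not given the *Upf3b* oligonucleotide it was -0.64 (limma, adjusted p = 0.18).

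Counts over all genes were less stable. At 10 mg/kg the 27 calls became 10 without the sex term, 56 with a pseudocount of 5, 17 with 0.5, 5 without a filter and 16 without trend and robust; leaving out each mouse gave 2 to 431 calls (7, 6, 2 and 4 without control mice 1 to 4, and 431, 14, 91 and 13 without treated mice 1, 2, 3 and 5). At 20 mg/kg the 236 calls became 67 without a filter and 60 without trend and robust; leaving out each mouse gave 70 to 270 (143, 70 and 134 without control mice 1, 3 and 5, and 101 and 144 without treated mice 1 and 6). Against DPBS, leaving out each mouse gave 0 to 1 calls at 15 mg/kg and 0 to 7 at 20 mg/kg, and for sex 86 to 134; over all 21 mice not given the *Upf3b* oligonucleotide, 239 genes differed by sex. With the replicate number as a block, over the 4 and 5 pairs of mice that share a number, 95 and 45 genes were called at 10 and 20 mg/kg and no list gene. Deviations of same-numbered mice had a mean r of 0.06 (from -0.182 to 0.363) at 10 mg/kg and -0.03 (from -0.265 to 0.102) at 20 mg/kg. So few pairs cannot decide whether the numbers pair the mice, and the numbers were used as names.

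Under other settings at 20 mg/kg *Apoa5* and *Pon1* lost their calls without a filter (adjusted p = 0.055 and 0.091), without trend and robust (0.10 and 0.11) and with the block (0.25 and 0.21). The DPBS correlation was -0.57 without the 2 farthest mice and -0.74 in females, and the control correlation turned to -0.22 without the 2 farthest mice and -0.071 without the mouse with the fewest reads. The fits over 21 mice, in females and without shallow mice were chosen after seeing the data. The cause of these shifts was not tested. Depth limits what can be said of *Lipc* in single treated mice, where 3 reads are 0.576 to 2.94 TPM.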
